A study of Homo sapiens with 3 samples.

Results

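The transcripts of 10 genes of carnitine synthesis, carnitine transport and mitochondrial fatty acid oxidation were followed in THP-1 macrophages. The genes were BBOX1, TMLHE, SLC22A5, SLC25A20, CPT1A, CPT2, ACADM, ACADVL, HADHA and HADHB. They were chosen from measured values, since BBOX1 was singled out for its fall after imiquimod (IMQ) in these same arrays and the other 9 were added as its pathway. The fall of BBOX1 is therefore a description and supports nothing by itself. The 10 genes were read by 14 probes, among 58201 probes that carried 41810 gene names.

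Carnitine is made from trimethyllysine in a chain of steps that TMLHE opens and BBOX1 (gamma-butyrobetaine hydroxylase) closes, and it is also taken up from outside by the plasma membrane transporter SLC22A5 (OCTN2). Long-chain fatty acids reach the mitochondrial matrix as acylcarnitines, through CPT1A on the outer membrane, the carnitine-acylcarnitine carrier SLC25A20 and CPT2 on the inner membrane, and are then shortened by acyl-CoA dehydrogenases such as ACADVL and ACADM and by the trifunctional protein of HADHA and HADHB. BBOX1 is best known from liver, kidney and brain, and macrophages stimulated through toll-like receptors are known for a shift from fatty acid oxidation toward glycolysis.

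The human leukemia line THP-1, of monocytic origin, had been turned into macrophage-like cells with the phorbol ester PMA at 100 ng/ml in all 3 conditions. The conditions were cells without further treatment (Ctrl), cells given IMQ, a small-molecule ligand of toll-like receptors, and cells given IMQ with a compound that the labels write as X (IMQ+X). X was read as DMD, a small methoxylated benzenediol, because the series title and treatment protocol name no other compound. The labels give 4 h and no dose of IMQ or X, whereas the methods of the study give a longer IMQ exposure for THP-1 experiments in general. Each condition was measured on 1 one-color array of 1 slide, so no difference below has a replicate check and no p-value was computed.

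The scanner marked 72% of all probes as well above background in Ctrl, 66.6% in IMQ and 71.9% in IMQ+X. The number of arrays limits the precision of every value. The only error at hand was the spot error, the SD between the repeated spots of 1 probe at a like brightness on each array, combined over both arrays of a comparison. It covers neither cultures nor RNA preparations. IMQ response genes differed widely from Ctrl, with log2 differences of 3.46 for TNF, 4.45 for IL1B, 6.16 for CXCL8, 7.49 for CXCL2 and 6.004 for CCL20. The 6 monocyte and macrophage markers measured (CD14, ITGAM, CSF1R, SPI1, FCGR1A and TYROBP) were well above background on every array, with a summed normalized intensity of 514500 in Ctrl, 438800 in IMQ and 420800 in IMQ+X. CSF1R and TYROBP make up most of that sum. Of the others, CD14 was 1.63-fold lower after IMQ and 2.32-fold lower with IMQ+X than in Ctrl, and FCGR1A was 1.66-fold and 2.21-fold lower. Markers of other cell types were summed as well, and the liver pair ALB and APOA1 gave 176.3, 228.2 and 202.3 on the Ctrl, IMQ and IMQ+X arrays. The kidney marker UMOD gave 226, 280.6 and 282.8 in the same order. The T cell pair lay between 496.7 and 573.5, the B cell pair between 375.5 and 523.6, the epithelial pair between 22.54 and 55.58 and the fibroblast pair between 40.64 and 43.81, and EPCAM and COL3A1 were not well above background on any array. Their part in the values below was not tested.

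The array probes are 60 bases long, and the sequences of 4 are shown because the results turn on what they read. The BBOX1 probe carries the largest difference, the ACADM probe crosses an intron, and the TMLHE probes lie at separate places. Positions are those of the scanner output in hg19, and all letters are in lower case because no part is singled out. No gene annotation of that build was used here, so exons and UTRs were not assigned.
BBOX1, chr11:27148956-27149015, plus strand: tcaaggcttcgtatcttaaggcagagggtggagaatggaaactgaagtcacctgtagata
ACADM, chr1:76227040-76228420, plus strand: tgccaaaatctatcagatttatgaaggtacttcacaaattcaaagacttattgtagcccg
TMLHE first probe, chrX:154736610-154736669, minus strand: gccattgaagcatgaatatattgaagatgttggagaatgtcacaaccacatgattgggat
TMLHE distant probe, chrX:154578253-154578926, plus strand: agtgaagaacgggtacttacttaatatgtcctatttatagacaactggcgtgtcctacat
The 60 bases of the ACADM probe were spread over 1381 bases of the genome, so genomic DNA does not hold them as 1 run. The distant TMLHE probe lay 141100 bases away from the nearest of the other TMLHE probes and on the opposite strand.

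Every one of the 14 probes passed the background mark on each of the 3 arrays, no spot was saturated, and none was marked as an outlier. Each had 1 spot per array.

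**Figure D1:**
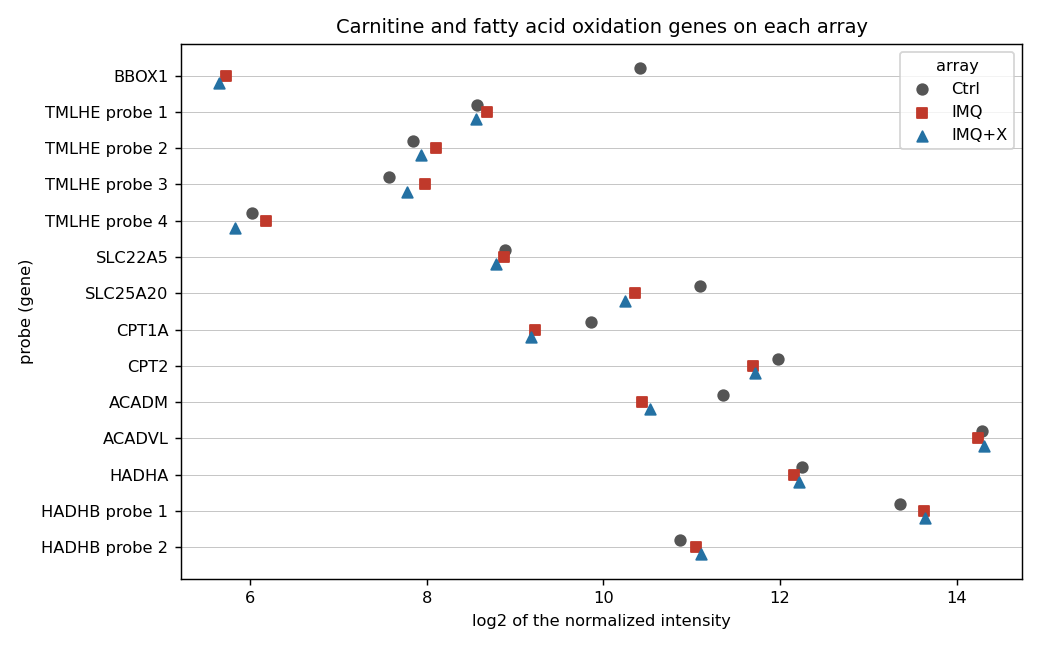
Each row is 1 of the 14 probes and each point its value on 1 array, as log2 of the normalized intensity on the horizontal axis, with circles for Ctrl, squares for IMQ and triangles for IMQ+X. The 3 points of BBOX1 lie at 10.4, 5.73 and 5.65. The IMQ and IMQ+X points lie near each other, with the widest gap at the dimmest TMLHE probe, where IMQ+X lies at -0.36 from IMQ. In the rows of TMLHE, SLC22A5, ACADVL and HADHA the Ctrl point is about as close.

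Carnitine synthesis was read through TMLHE and BBOX1. The normalized intensity of BBOX1, the last enzyme of the pathway, was 1367 in Ctrl, 53.0 in IMQ and 50.3 in IMQ+X. It was high in Ctrl alone, and both arrays with IMQ were low. The log2 difference between IMQ and Ctrl was -4.69 with a spot error of 0.46, or 25.8-fold lower. Between IMQ+X and Ctrl it was -4.76 with a spot error of 0.21, or 27.2-fold lower. IMQ+X differed from IMQ by -0.08 with a spot error of 0.50, less than the error. The spot error at this brightness rested on 2 repeated probes in IMQ and on 6 in IMQ+X, and a difference between IMQ and IMQ+X of up to about that error could not be seen. Before any correction, the mean pixel signal of the BBOX1 spot was 1809 over a local background of 39 in Ctrl, 89.7 over 37 in IMQ and 99.3 over 36 in IMQ+X. With the normexp correction, which also adds an offset of 50 to every value, the IMQ difference was -3.70. On the Ctrl array the pixels of the spot had an SD of 18.8% of their mean, a value that stood at percentile 95.2 among spots of like brightness, and the percentiles were 41.8 and 52.1 on the other arrays. In such bulk RNA, fewer cells that make a transcript and less of it per cell cannot be told apart.

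Among the genes compared, 3 of 31705 fell at least as far as BBOX1 between Ctrl and IMQ, BBOX1 included, and 3 of 32638 between Ctrl and IMQ+X. BBOX1 was chosen for its fall and both comparisons share the Ctrl array, so these counts only describe it.

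TMLHE, which hydroxylates trimethyllysine at the start of the pathway, had 381.4 in Ctrl, 409.8 in IMQ and 375.7 in IMQ+X at its first probe. These values differed by little more than the spot error, since IMQ was 0.10 above Ctrl with an error of 0.09 and IMQ+X 0.13 below IMQ with an error of 0.10. The spot of this probe on the IMQ+X array was uneven, with a pixel SD at percentile 99.9. The distant probe shown above had 189.9, 253.6 and 219.2 in the same order, and its IMQ value was 0.42 above Ctrl with an error of 0.14. The scanner output lists other transcripts for this probe than for the other 3, so it may not read the same RNA. The remaining TMLHE probes had IMQ values 0.26 and 0.16 above Ctrl, so that the 3 probes of the listed TMLHE transcript were highest on the IMQ array. For the first probe the IMQ value stayed above Ctrl with quantile, percentile and normexp values, whereas without normalization between arrays it was 0.34 lower after IMQ, and 0.53 lower when scaled to spike-in probes.

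The list of carnitine synthesis also held ALDH9A1, an aldehyde dehydrogenase, and SHMT1, a hydroxymethyltransferase better known from serine and glycine metabolism. The part of SHMT1 in carnitine synthesis was not tested here. ALDH9A1 had 3714, 3040 and 3054 on the Ctrl, IMQ and IMQ+X arrays. SHMT1 had 613.7, 255.9 and 215.2, and IMQ lay at -1.26 from Ctrl on the log2 scale with a spot error of 0.12. Its second probe gave -1.07. Of the 4 genes listed for carnitine synthesis, BBOX1 and SHMT1 were therefore at least 2-fold lower after IMQ, and TMLHE and ALDH9A1 were not. Of all compared probes, 3.38% were at least 2-fold lower. BBOX1 was chosen for its fall, so this count describes the list.

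Carnitine uptake was read through SLC22A5, the high-affinity carnitine transporter. Its normalized intensity was 473.9 in Ctrl, 468.2 in IMQ and 441.3 in IMQ+X. The differences of -0.02 between IMQ and Ctrl and -0.09 between IMQ+X and IMQ were both below their spot errors of 0.09 and 0.10. The spots were uneven on all 3 arrays, with pixel SDs at percentiles 99.8, 97.7 and 97. Related carriers had larger differences. SLC22A16, a carnitine transporter also called CT2, had 8205, 3263 and 3125 and was 2.51-fold lower after IMQ. SLC22A4 (OCTN1), an ergothioneine carrier, had 719.7, 1270 and 1221, a log2 difference of 0.82 between IMQ and Ctrl.

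SLC25A20, which exchanges acylcarnitine for carnitine across the inner mitochondrial membrane, had 2189 in Ctrl, 1315 in IMQ and 1211 in IMQ+X. It was high in Ctrl and lower in both arrays with IMQ. The log2 difference between IMQ and Ctrl was -0.73 with a spot error of 0.07, or 1.66-fold lower. IMQ+X was 0.12 below IMQ with an error of 0.07 and lay at -0.85 from Ctrl, although scaled to spike-in probes it was 0.03 above IMQ.

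The acyltransferases were both lower after IMQ, CPT1A more than CPT2. CPT1A, which makes acylcarnitines from long-chain acyl-CoA and is the step held back by malonyl-CoA, had 930.4 in Ctrl, 599 in IMQ and 579.7 in IMQ+X. Its log2 difference was -0.64 between IMQ and Ctrl with a spot error of 0.07, or 1.55-fold lower. CPT2, which returns the acyl group to CoA in the matrix, had 4046, 3328 and 3370 on the same arrays, and its difference was -0.28 with an error of 0.07. IMQ+X differed from IMQ by -0.05 for CPT1A and 0.02 for CPT2, both below their errors of 0.07 and 0.06. Of the other acyltransferases, CPT1B had 587.6, 526.8 and 432 and CRAT, which acts on short acyl groups, 7768, 6472 and 6461. CPT1C and CROT were measured as well, and none of the 6 genes of the list reached 2-fold in any comparison.

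The acyl-CoA dehydrogenases carry out the first oxidation, each for a range of chain lengths. ACADM, the medium-chain enzyme, had 2620 in Ctrl, 1387 in IMQ and 1476 in IMQ+X. Its log2 difference between IMQ and Ctrl was -0.92 with a spot error of 0.07, or 1.89-fold lower, the nearest to 2-fold of the 9 genes beside BBOX1. IMQ+X was 0.09 above IMQ with an error of 0.07, but this turned to -0.07 under 75th-percentile scaling and to -0.006 on unnormalized values. Against Ctrl, IMQ+X lay at -0.83. ACADVL, the very-long-chain enzyme, had 20000, 19420 and 20360, and its differences of -0.04 between IMQ and Ctrl and 0.07 between IMQ+X and IMQ were within about 1 spot error of 0. With scaling to the 75th percentile the sign of ACADVL turned, to 0.11 between IMQ and Ctrl. Of the 6 dehydrogenases listed, ACADL was not well above background on any array. At their brightest probes the 5 compared were all below Ctrl after IMQ, between -0.92 and -0.04. ACAD9, which also serves the assembly of complex I, had 10050, 6568 and 7131. ACADSB had a difference of -0.49, but its other probe gave 0.03. The dimmer ACADS had a difference of -0.66 with a spot error of 0.18.

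The trifunctional protein is a complex of alpha subunits from HADHA and beta subunits from HADHB. HADHA had 4878 in Ctrl, 4563 in IMQ and 4762 in IMQ+X. Its difference between IMQ and Ctrl was -0.10 with a spot error of 0.07. HADHB had 10530, 12670 and 12820 at its first probe, a difference of 0.27 with an error of 0.06. The second HADHB probe crosses an intron and had 1870, 2114 and 2206, a difference of 0.18 with an error of 0.07. HADHB was thus higher on both arrays with IMQ at both probes, although its first probe was 0.07 lower after IMQ without normalization between arrays and 0.25 lower when scaled to spike-in probes. Scaling moves all probes of an array alike, so the subunits were also set against each other. The log2 difference of HADHB minus that of HADHA was 0.36 with a spot error of 0.09 at the first probe and 0.27 with an error of 0.10 at the second. Over 6 treatments of the intensities it lay between 0.36 and 0.42 for the first probe. Unnormalized, percentile and spike-in values had to give the same result here, because they differ by a constant per array. Only the quantile and normexp treatments could move it. The genes are neighbours on chromosome 2 and are transcribed away from each other, with 306 bases between them in RefSeq (GRCh38.p14). Both therefore start from nearly the same stretch of DNA, and their transcripts changed unequally on these arrays.

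Of the 10 genes, BBOX1 was at least 2-fold lower after IMQ and 0 were at least 2-fold higher, beside 3.38% of all compared probes lower and 4.19% higher. At 1.5-fold, 4 of the 10 were lower (BBOX1, ACADM, SLC25A20 and CPT1A) and 0 higher, beside 10.2% and 10.9% of all probes. The other 9 genes had a median log2 difference of -0.10 and a range of -0.92 to 0.27, with 7 below 0, while the median of all 42358 compared probes was 0.00 (0.001). The list was assembled around a gene chosen for its fall, so these counts describe it and nothing is read from them.

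**Figure D2:**
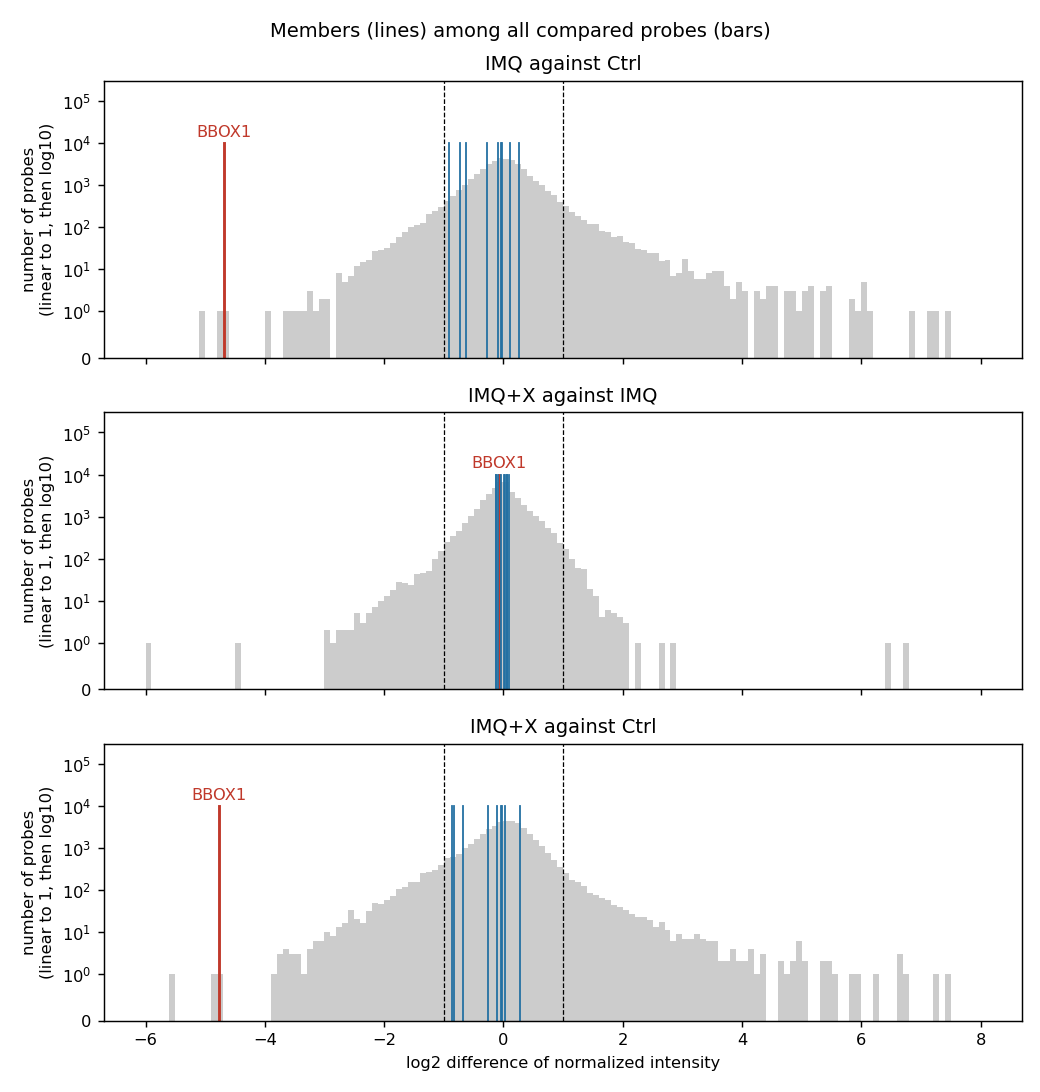
Grey bars count all compared probes by their log2 difference of normalized intensity in bins of 0.1, on an axis that is linear up to 1 and log10 above; lines mark the 10 genes (1 probe each, BBOX1 in red) and dashed lines mark 2-fold. BBOX1 lies in the far lower tail at -4.69 and -4.76 against Ctrl, and in the comparison of IMQ+X with IMQ all 10 lines lie between -0.13 and 0.09.

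Whether DMD turned these differences back was read from IMQ+X against IMQ. None of the 10 genes changed 2-fold (0 of 10), beside 1.06% of all compared probes at least 2-fold higher and 1.27% lower. The differences lay between -0.13 for TMLHE and 0.09 for ACADM, and the 9 genes beside BBOX1 had a median of 0.02. In this range are the 4 genes that were 1.5-fold lower after IMQ, with -0.08 for BBOX1, -0.12 for SLC25A20, -0.05 for CPT1A and 0.09 for ACADM. The sign of each of these 10 differences turned under at least 1 other treatment of the intensities. Set against Ctrl, IMQ+X gave the same counts of members as IMQ, and the comparisons share the Ctrl array. BBOX1 was the 1 gene at least 2-fold lower and 0 were higher, beside 4.91% and 3.09% of all probes. At 1.5-fold, 4 of 10 were lower and 0 higher, beside 11.9% and 9.77%.

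The 10 genes were then read within 71 genes in 10 lists of the same metabolism. Of these, 67 were compared between IMQ and Ctrl, 7 were at least 2-fold lower and 3 higher, beside 3.38% and 4.19% of all compared probes, and 46 lay below 0 with a list median of -0.26. At 1.5-fold, 19 were lower and 8 higher, beside 10.2% and 10.9%. The lists hold BBOX1 and were chosen with these values known, so the counts describe them. In the comparison of IMQ+X with IMQ, 1 of 67 was at least 2-fold lower (SLC27A2) and 0 higher, beside 1.27% and 1.06% of all compared probes.

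**Figure D3:**
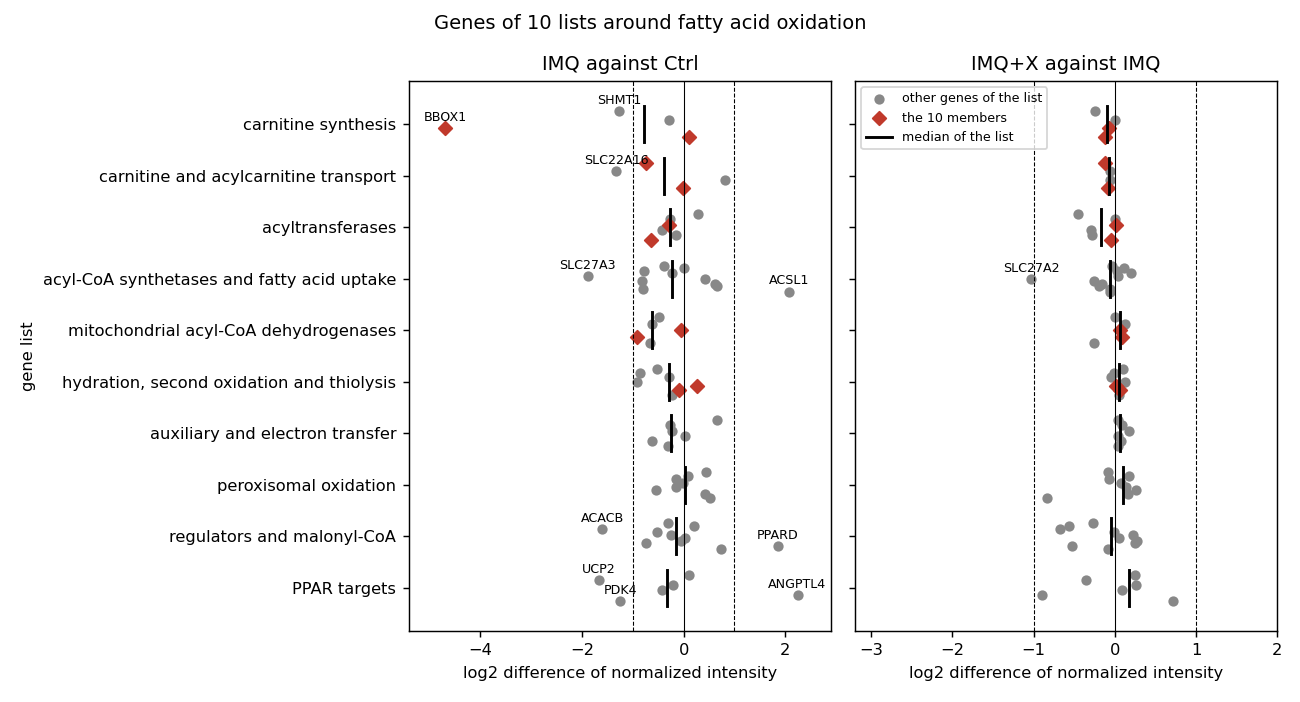
Each point is 1 gene of a list (red diamonds are the 10 genes, grey circles the others) at its log2 difference of normalized intensity, for IMQ against Ctrl on the left and IMQ+X against IMQ on the right, with black bars for list medians, dashed lines at 2-fold and names at genes past it. The mitochondrial dehydrogenases lie at or below 0 on the left with a median of -0.61, while the peroxisomal list is centred at 0.04, and on the right all points but a few lie near 0.

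Fatty acid uptake and activation held genes past 2-fold in both directions. ACSL1, a long-chain acyl-CoA synthetase, had 1341 in Ctrl, 5661 in IMQ and 5421 in IMQ+X, 4.22-fold higher after IMQ. SLC27A3, a fatty acid transport protein, had 3069, 828.5 and 849.3, or 3.7-fold lower. SLC27A1 had 5196, 2956 and 2482, and at this probe it was 2-fold lower than Ctrl with IMQ+X, at -1.07, but not with IMQ. Its other probe lay in the opposite direction between IMQ+X and Ctrl, at 0.16. SLC27A2 had 237.5, 316 and 154.8, so the IMQ array was the highest and IMQ+X was 1.03 below it. The scavenger receptor and fatty acid translocase CD36 had 50040, 29130 and 29750. The fatty acid binding protein FABP5 had 123900, 95030 and 92700, whereas FABP4 had 2715, 2737 and 2954. ACSL6 was not well above background on any array, and the 11 other genes of the list were compared, 6 below Ctrl and 5 above it after IMQ.

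Downstream of the dehydrogenases, most matrix enzymes of the later steps lay below Ctrl after IMQ. HADH, the short-chain hydroxyacyl-CoA dehydrogenase, had 14880 in Ctrl, 7933 in IMQ and 8637 in IMQ+X, a log2 difference of -0.91 between IMQ and Ctrl. ACAA2, the mitochondrial thiolase, had 4783, 2658 and 2646, a difference of -0.85. Of the 7 genes for hydration, second oxidation and thiolysis, 6 were below Ctrl after IMQ, HADHB was above it, and 0 reached 2-fold. HSD17B10 had a difference of -0.29, ACAT1, which acts on acetoacetyl-CoA, one of -0.52, and ECHS1 one of -0.23. In the list of auxiliary enzymes and electron transfer, ECI1 had 18480, 12000 and 12680, while ETFDH, which passes electrons to ubiquinone, had 1722, 2730 and 2815. ETFB and DECR1 had differences of -0.28 and -0.31, and ETFA, the other subunit of the electron transfer flavoprotein, -0.24.

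Oxidation in peroxisomes shortens very long chains, and uptake into that organelle uses ABC transporters rather than carnitine. The 8 compared genes of its list were split, 4 above and 4 below Ctrl after IMQ, with a median of 0.04 and 0 at 1.5-fold. ACAA1 had 8411, 8306 and 8735, SCP2 5305, 4800 and 4583, and HSD17B4 4014, 3630 and 3991. ABCD2 was not well above background on any array.

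Regulators of the pathway moved in both directions. The nuclear receptor PPARD had 4158 in Ctrl, 15030 in IMQ and 10410 in IMQ+X, 3.62-fold higher after IMQ and 0.53 lower with IMQ+X than with IMQ, and its second probe was 1.39 above Ctrl after IMQ. PPARG had 4335, 2587 and 3069, and PPARA 162.6, 269 and 253.5. ACACB, which makes the malonyl-CoA that inhibits CPT1, had 880.9, 290 and 182.1 at its brightest probe, a difference of -1.60, but its other probes gave -0.26 and 0.23. ACACA had 4519, 3148 and 3127. RXRA, the partner of the PPAR receptors, had 24570, 20600 and 24000, and ESRRA 9647, 9845 and 10230. The coactivator PPARGC1A had 18.3 in Ctrl and 22.3 in IMQ, and was well above background on the Ctrl array alone. The brighter array of this pair, IMQ, was thus not well above background, so PPARGC1A gave no comparison between IMQ and Ctrl.

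Targets of PPAR receptors did not move as 1 group. ANGPTL4, an inhibitor of lipoprotein lipase, had 86.5 in Ctrl, 408.2 in IMQ and 218.5 in IMQ+X, 4.72-fold higher after IMQ and 0.90 lower with IMQ+X than with IMQ. PDK4, which turns off pyruvate dehydrogenase when fat is burned, had 597.8, 252.1 and 415.1, and was 1.25 below Ctrl after IMQ and 0.72 higher with IMQ+X than with IMQ. UCP2, a carrier of the inner mitochondrial membrane, had 4361, 1375 and 1077, or 3.17-fold lower after IMQ. PLIN2, a coat protein of lipid droplets, had 25410, 18920 and 20180. UCP3 had a difference of 0.10 between IMQ and Ctrl.

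The promoters of the 4 genes that were 1.5-fold lower after IMQ are shown to let their sequence be compared, as the 250 bases before the gene start in RefSeq (GRCh38.p14), read in the direction of transcription. Capitals mark matches, on either strand, to any of 5 motifs. The half-site of nuclear receptors such as PPAR was searched as AGGTCA. For the box bound by Sp1 and related factors, the letters were GGGCGG. The CCAAT box and the kappaB site were searched under those names, and the motif of the TATA box was taken to be TATAAA here.
BBOX1, chr11:27040565-27040814, plus strand: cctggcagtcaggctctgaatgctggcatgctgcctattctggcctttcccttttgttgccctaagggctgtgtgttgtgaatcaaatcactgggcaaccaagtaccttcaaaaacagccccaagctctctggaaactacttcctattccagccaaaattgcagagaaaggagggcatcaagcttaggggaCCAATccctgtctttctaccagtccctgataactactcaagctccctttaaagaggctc
SLC25A20, chr3:48898883-48899132, minus strand: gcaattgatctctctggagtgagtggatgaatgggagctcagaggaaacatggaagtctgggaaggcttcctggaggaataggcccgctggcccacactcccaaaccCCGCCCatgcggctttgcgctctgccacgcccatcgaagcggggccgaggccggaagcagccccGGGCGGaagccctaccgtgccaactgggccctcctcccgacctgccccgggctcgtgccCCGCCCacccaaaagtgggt
CPT1A, chr11:68844278-68844527, minus strand: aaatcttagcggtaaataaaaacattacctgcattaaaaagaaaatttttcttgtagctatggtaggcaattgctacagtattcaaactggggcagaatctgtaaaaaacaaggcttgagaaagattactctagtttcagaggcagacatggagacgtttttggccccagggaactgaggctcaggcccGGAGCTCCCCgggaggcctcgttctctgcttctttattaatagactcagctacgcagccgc
ACADM, chr1:75724459-75724708, plus strand: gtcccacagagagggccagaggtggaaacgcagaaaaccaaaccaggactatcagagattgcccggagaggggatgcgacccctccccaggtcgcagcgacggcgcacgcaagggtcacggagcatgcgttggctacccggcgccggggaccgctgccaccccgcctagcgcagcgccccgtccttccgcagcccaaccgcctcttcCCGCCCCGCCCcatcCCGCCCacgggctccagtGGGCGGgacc
RefSeq gives BBOX1 and ACADVL 2 starts each, so the 10 genes had 12 windows, and the first BBOX1 start is printed. BBOX1 was the 1 gene of the 10 with a CCAAT match (32% of all 35116 windows had one), at both of its starts. Its other window also held a match to the TATA box motif 29 bases before the start. That match reads TTTATA in the direction of transcription, with TATAAA on the opposite strand. GC boxes were matched in 8 of the 10 genes, all but BBOX1 and CPT1A, with 4 matches for ACADM and 3 for SLC25A20. Of all windows, 42.6% held one. The windows of HADHA and HADHB overlap. The only HADHA match is the same stretch of DNA as 1 of the 2 HADHB matches. HADHA and HADHB are therefore not separate cases in this count. CPT1A held the 1 kappaB match, beside 9.96% of all windows, and AGGTCA was matched in 0 of 10, beside 12.1%. The TATA box motif was matched in 3 of 10 (BBOX1, TMLHE and ACADVL), beside 10.7%, each time with TATAAA on the opposite strand. GC content was 49.2% for BBOX1 and 44.4% for CPT1A, against 66% for SLC25A20 and 70.8% for ACADM. For every motif, a gene with 2 windows was counted once if either matched, whereas the shares are per window. The counts of genes and the shares are therefore not like for like, and no excess is read from them. A match is a stretch of letters and no site, and its absence here concerns these windows alone. Some neighbouring GC box matches in ACADM share a base.

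The genes with the pattern most like BBOX1 were sought by the distance between log2 differences, taken over IMQ against Ctrl and IMQ+X against Ctrl, among genes well above background on the Ctrl array. The likeness rests on 3 arrays. The rule named 5 genes, but 2 of them were not well above background in IMQ, so their distance is no measured value and they have no rank. One is LCMT1-AS2, an antisense RNA gene, with 631.2 in Ctrl, 20.9 in IMQ and 21.5 in IMQ+X. It was at least 26.5-fold lower in IMQ, and its other probe differed by 0.38 in the other direction. CX3CR1, the fractalkine receptor of monocytes, had a distance of 0.89, with 14120, 428.2 and 295.2. The other dim gene, MRVI1, had 364.6, 18.0 and 25.1 and was at least 15.3-fold lower in IMQ. CDCA7 lay at 1.53 with 2930, 256.9 and 212.3, though its other probe differed by -0.49. VIPR1, a receptor of vasoactive intestinal peptide, lay at 1.65 with 391, 35.1 and 31.3. A floor was set for probes not well above background at the lowest log2 value of the probes that were, namely 4.04 in Ctrl, 4.57 in IMQ and 4.08 in IMQ+X.

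The size of the smaller differences moved with the scaling of the arrays. The quantile normalization of the authors sets the arrays to the same distribution, whereas without normalization between arrays the median of all compared probes was -0.51 between IMQ and Ctrl, and scaled to spike-in probes it was -0.70. Of all compared probes, 15.6% were then at least 2-fold lower without normalization and 25.2% on spike-in probes. Under both, ACADM, SLC25A20 and CPT1A joined BBOX1 at 2-fold, at -1.31, -1.14 and -1.06 on unnormalized values and at -1.49, -1.32 and -1.25 on spike-in probes. Relative to the median of all probes, ACADM lay between -0.92 and -0.79 over 6 treatments of the intensities, SLC25A20 between -0.74 and -0.62, CPT1A between -0.64 and -0.55, and BBOX1 between -4.81 and -3.68. On the same scale CPT2 lay between -0.31 and -0.14, HADHB between 0.27 and 0.44 and TMLHE between 0.10 and 0.17. SLC22A5, ACADVL and HADHA took both signs. Unnormalized, percentile and spike-in values differ by a constant per array, so on this scale they are nearly equal by construction. The authors' quantile values and the new quantile values come from the same method. These ranges therefore rest on fewer than 6 separate treatments.

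**Figure D4:**
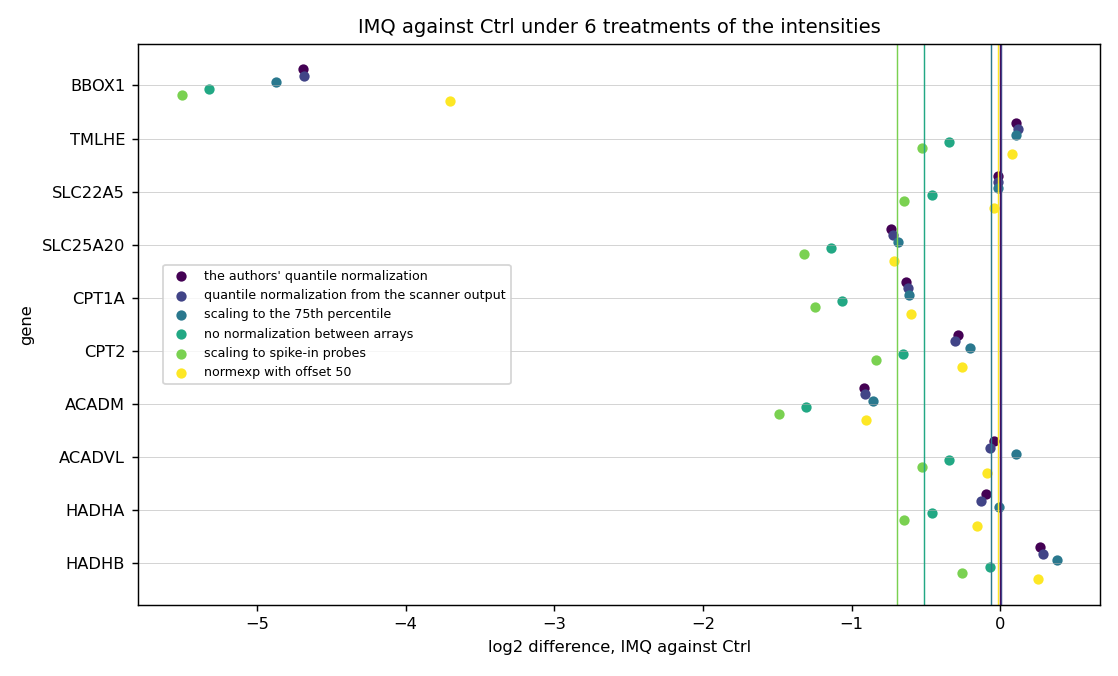
Each point is the log2 difference between IMQ and Ctrl of 1 gene under 1 of 6 treatments of the intensities (colours), and each vertical line is the median of all compared probes under that treatment. BBOX1 lies between -5.51 and -3.70 under all 6, while the other genes shift to the left with the median of all probes, which lies at -0.51 for unnormalized values and at -0.70 on spike-in probes.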

How the data were processed

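RNA of THP-1 macrophages was hybridised to 3 one-color Agilent arrays, 1 per condition. For each array the authors deposited the scanner output (Feature Extraction, hg19 annotation) and a table of raw and quantile-normalized intensity per probe, which was used here, converted to log2. Probe names, background marks and pixel statistics came from the scanner output. Of the 62976 spots per array, 60901 read transcripts. Comparisons took each probe that the scanner marked well above background on the brighter array, and a dim value was raised to the floor of its array. For a gene with several probes, the one with the highest mean log2 value stood for it. A change was 2-fold or more, with 1.5-fold and 4-fold as alternatives. Spot errors came from 300 probes with 10 spots each. No p-values were computed.

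The alternatives were a new quantile normalization of the scanner intensity, scaling to the 75th percentile or to 8 of 10 spike-in probes with 35 spots each, no normalization, normexp with an offset of 50, no floor (with no background requirement either), probes well above background on both arrays, and the mean over probes. Wider lists were given with every gene at 2-fold and up to 4 examples by brightness, and further genes printed were chosen after their values were seen. The members and lists were chosen with earlier results of these data known. The tools were limma 3.58.1 (R 4.3.3) and Python 3.11.15 (pandas 2.3.3, numpy 2.4.6, matplotlib 3.10.9). Promoters came from RefSeq tables. Gene ontology results of the series were not used here, and a few listed genes are not reported here.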

Additional observations from a re-analysis of the deposited data

How the results depend on the processing

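No paired analysis was possible because each condition had 1 array. Of the 8 alternatives, 5 rescale or recorrect the intensities and could move every member, and BBOX1 kept its direction against Ctrl under these 5. The other 3 leave BBOX1 as it is, since it has 1 probe that was well above background on every array. Its difference between IMQ and Ctrl was -5.32 without normalization between arrays, -5.51 with scaling to spike-in probes and -3.70 with normexp, and between IMQ+X and Ctrl it was -5.04, -5.01 and -3.71 under the same settings. Between IMQ+X and IMQ it was 0.50 with spike-in scaling. The median of the other 9 members between IMQ and Ctrl was -0.46 without normalization, -0.65 with spike-in scaling and -0.014 with the 75th percentile. Between IMQ+X and Ctrl it was -0.52 unnormalized and -0.49 on spike-in probes. Between IMQ+X and IMQ it was -0.064 without normalization, 0.16 on spike-in probes and -0.13 with the 75th percentile. The members at least 2-fold lower after IMQ were 4 without normalization and 4 with spike-in scaling. In the authors' values, 4 members were at least 1.5-fold lower. In the wider list, 18 genes were lower after IMQ without normalization and 24 with spike-in scaling. Of all probes, 15.6% and 25.2% were then lower. At 1.5-fold, 19 were lower and 8 higher, beside 10.2% and 10.9% of all probes. At 4-fold, 1 was lower and 2 were higher. Without the floor 5 were higher, but that setting also compared probes not well above background, such as those of ACSL6 and ABCD2. The share of all probes was not computed at 4-fold or without the floor, so nothing is read from those counts. The median of all probes moved with the scaling of the arrays, and the cause of that shift was not tested. Of 135 values of the other members under these 5, 67 stayed within the spot error, 68 moved by more, and 110 kept their sign. Dim signal limits BBOX1 on both arrays with IMQ, and 1 array per condition limits every difference.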
